A study of Mus musculus with 8 samples.

Results

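The genes described here are the interleukins and their receptors, taken as all protein-coding mouse genes whose symbol begins with Il followed by a digit. There were 84 of them among the 52784 genes of the table, and by their known roles they comprised 38 ligands, 39 receptor chains, 6 decoy receptors, binding proteins or antagonists, and Il4i1, an amino acid oxidase. RNA was sequenced from 8 pooled libraries, 1 for each cell origin and treatment, so that every comparison below is between single libraries and has no replicate check. Trafficked maternal cells were of the CD11c-DTR strain on C57BL/6, which expresses the diphtheria toxin (DT) receptor under the promoter of CD11c (Itgax), a gene of dendritic cells (DC). Recipient cells came from F1 pups of CD11c-DTR dams and BALB/c males. All cells were harvested from pups aged 1 week and sorted by the maternal (H2K-b) or paternal (H2K-d) histocompatibility marker, both of which F1 cells inherit, and cells of several pups were pooled. The treatments were no injection, intrauterine transplantation (IUT) of maternal-type bone marrow cells (mIUT), IUT of paternal BALB/c bone marrow cells (pIUT), and pIUT after DT was given to the dam at 5 ng/g on embryonic day 13 (DC-depleted pIUT). The mIUT donors were C57BL/6 mice, separate from the CD11c-DTR dams. IUT delivered 5000000 donor cells on embryonic day 14, and dams of the mIUT and pIUT groups were not DC-depleted. The mIUT donors carry H2K-b and the pIUT donors H2K-d. Whether donor cells were kept out of the sorted libraries is not given in the sources used here. Uninjected pups were offspring of dams with or without DT, in a proportion not given in the sources used here.

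Interleukins are secreted proteins through which leukocytes instruct each other and the tissue around them. Most bind a private receptor chain that is joined by a chain shared within a family, such as the common gamma chain Il2rg (IL-2, IL-4, IL-7, IL-9, IL-15 and IL-21), gp130 (Il6st, for IL-6, IL-11 and IL-27) and Il1rap (IL-1, IL-33 and IL-36). The IL-1 family is also held in check outside the cell by an antagonist, Il1rn, by a decoy receptor, Il1r2, and by a binding protein for IL-18, Il18bp.

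Total counts lay between 38543457 and 47965130, while genes detected (over 3 counts) ranged from 9937 to 17806. Among genes with at least 10 CPM (counts per 1000000 of the TMM-scaled library total) in each of the other 7 libraries, 9.51% were under 1 CPM in the recipient uninjected library and 4.86% in maternal mIUT, against 1.26% or less in the other 6. These libraries stand apart, and every recipient comparison with uninjected pups and every maternal mIUT comparison rests on them. The study that reported the data took the cells from whole-body harvests and calls them mononuclear. The 8 granulocyte genes examined (among them Mpo, Elane, S100a8 and Ly6g) nevertheless had summed levels between 1527 and 187430 CPM. In bulk RNA, fewer cells of a type and less RNA per cell cannot be told apart. Where values of such marker genes are given beside an interleukin gene below, their part in the result was not tested.

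Of the 84 genes, 65 were detected in at least 1 library, 13 in all 8 and 19 in none. Values of 3 counts or fewer, or between 0.0547 and 0.105 CPM by library, count as not detectable, and folds against them are bounds. The 13 genes found throughout were the receptor chains Il2rg, Il4ra, Il6ra, Il10ra, Il10rb, Il11ra1, Il13ra1 and Il17ra, the ligands Il1b, Il16 and Il36g, and the IL-1 inhibitors Il1r2 and Il1rn. The 19 undetected genes included Il3, Il5, Il9, Il13, Il25 and Il31, ligands of activated helper T cells, mast cells or epithelium. The number of members detected was 38, 28, 32 and 34 in maternal uninjected, mIUT, pIUT and DC-depleted pIUT, and 24, 43, 53 and 56 in the same order for recipient cells. Thus recipient libraries after IUT held the most members, and the recipient uninjected library the fewest. Genes detected over the whole table ran the same way, with 9937 in recipient uninjected and 14585, 15975 and 17806 in recipient mIUT, pIUT and DC-depleted pIUT, against 10664 to 14540 in maternal libraries.

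**Figure D1:**
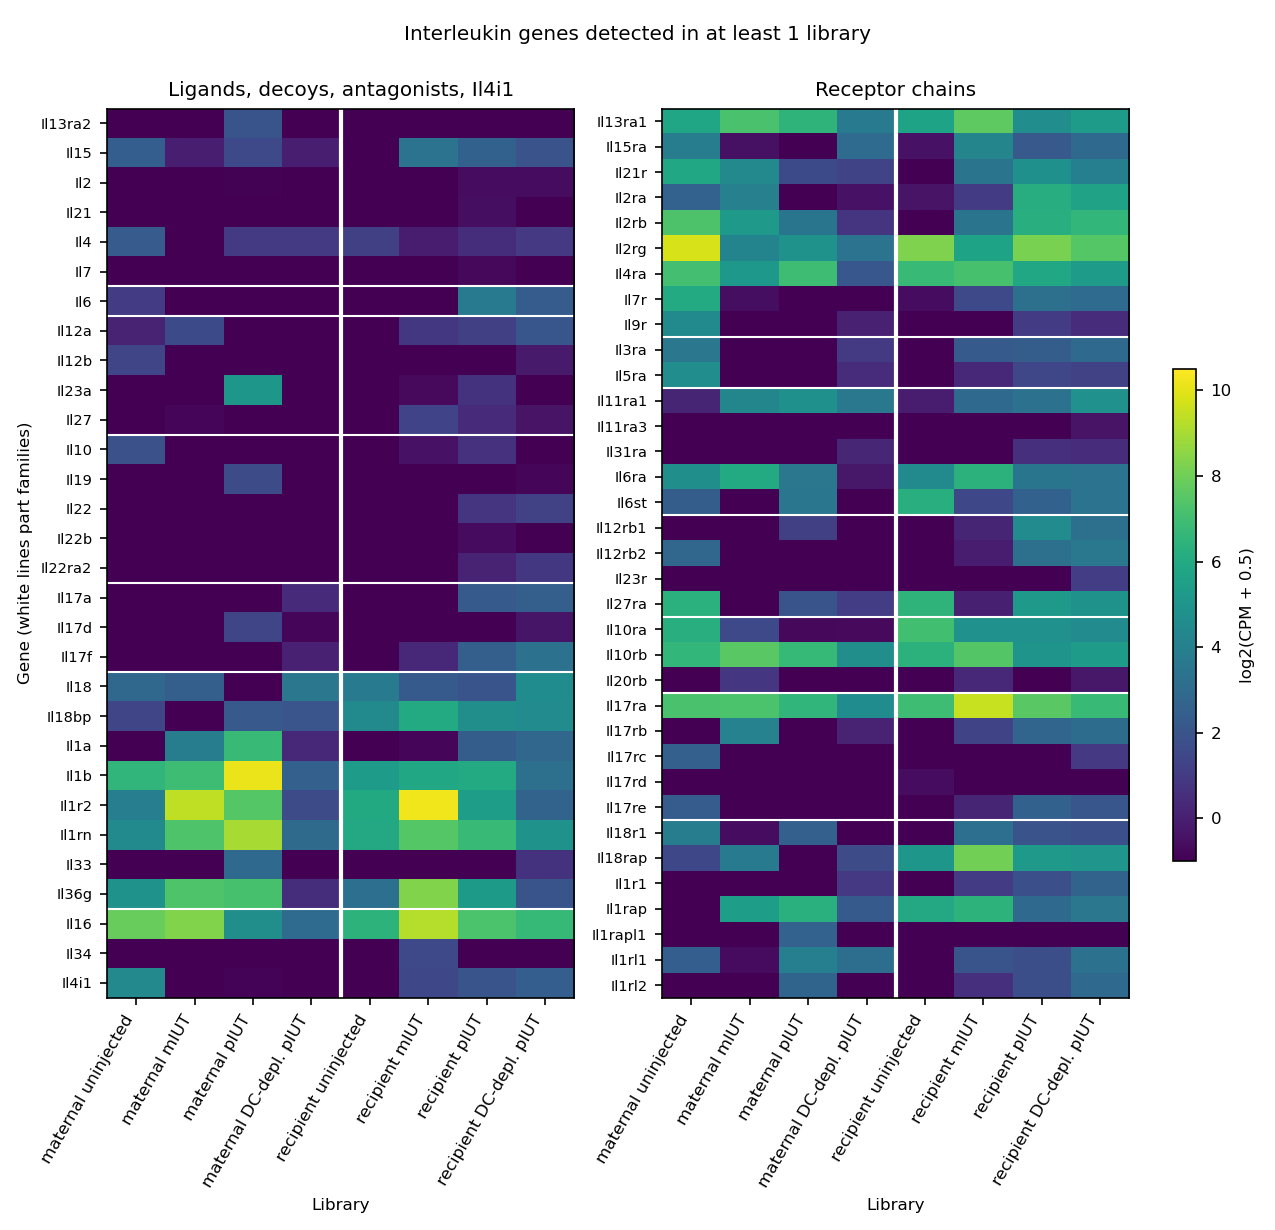
Level of each of the 65 detected members as log2(CPM + 0.5), with ligands, inhibitors and Il4i1 on the left and receptor chains on the right, in 1 column per library. Maternal DC-depleted pIUT is dark almost throughout, and the recipient columns fill from the uninjected library (24 members) to DC-depleted pIUT (56).

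The summed level of all members was 2327 CPM in maternal uninjected, 2234 in maternal mIUT, 2786 in maternal pIUT and 164 after DC depletion. In recipient cells it was 1372, 4306, 1451 and 1035 CPM in the same order. The maternal DC-depleted library therefore stood far below the other 7, although it had 34 members detected. Of the erythroid genes examined, Klf1 had 120, 0, 335 and 552 CPM in the maternal libraries, in the same order, and 296, 0.732, 0.221 and 41.4 CPM in the recipient libraries. Gata1 had 42.0, 0.0258, 117 and 403 CPM in maternal and 0.930, 2.20, 7.17 and 36.7 CPM in recipient cells. Both were higher in maternal DC-depleted pIUT than in maternal uninjected cells. The 5 erythroid genes found in the table summed to 715, 156, 2282 and 2005 CPM in the maternal libraries, in the same order. That sum was highest in maternal pIUT, where the summed member level was also the highest of that origin. In recipient cells the erythroid sum was 1117, 3.77, 494 and 419 CPM. The part of these genes in the member levels was not tested. Per kb of exon, the scale on which levels of different genes can be compared, the member with the highest level was Il2rg in both uninjected libraries (372 and 128 CPM per kb), Il1r2 in both mIUT libraries (270.4 and 485 CPM per kb) and Il1b in maternal pIUT (442 CPM per kb). Il2rg again led in recipient pIUT (121 CPM per kb), recipient DC-depleted pIUT (73.3 CPM per kb) and maternal DC-depleted pIUT, where its 4.199 CPM per kb was close to the 4.11 of Il10rb. In maternal pIUT the next 3 were also of the IL-1 family, Il1rn, Il36g and Il1r2, at 92.6, 73.3 and 69.8 CPM per kb.

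Il1b, Il1rn, Il1r2 and Il36g, of the IL-1 family, were detected everywhere and lower in DC-depleted than in DC control pIUT in both origins. The same held for Il2rg, Il4ra, Il6ra, Il16 and Il17ra. For those of the IL-1 family, the 250 bases before the canonical transcription start are shown, from the GRCm39 genome and 5′ to 3′ on the gene's strand. Capitals mark matches, on either strand, to 4 motifs. The letters searched were TATAAA for the basal promoter element of that name. GGNNTTTCC stood for NF-kB, TTNCNNAA for C/EBP factors and GAGGAA for the ETS factor PU.1.
Il1b, chr2:129213060-129213309, strand -: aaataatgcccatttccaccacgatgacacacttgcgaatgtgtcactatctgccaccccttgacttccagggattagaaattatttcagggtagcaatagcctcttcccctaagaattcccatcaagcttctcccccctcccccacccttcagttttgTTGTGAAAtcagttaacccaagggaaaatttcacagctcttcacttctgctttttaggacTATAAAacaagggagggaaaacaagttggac
Il1rn, chr2:24226615-24226864, strand +: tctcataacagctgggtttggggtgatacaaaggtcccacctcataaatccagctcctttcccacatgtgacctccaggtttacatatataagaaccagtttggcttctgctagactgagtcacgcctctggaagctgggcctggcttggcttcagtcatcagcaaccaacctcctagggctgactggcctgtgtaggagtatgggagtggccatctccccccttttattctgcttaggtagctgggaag
Il1r2, chr1:40123608-40123857, strand +: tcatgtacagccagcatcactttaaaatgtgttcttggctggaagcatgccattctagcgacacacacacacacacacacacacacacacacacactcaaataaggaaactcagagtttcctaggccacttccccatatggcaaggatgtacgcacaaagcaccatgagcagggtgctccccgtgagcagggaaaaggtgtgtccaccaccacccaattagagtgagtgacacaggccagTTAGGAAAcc
Il36g, chr2:24076238-24076487, strand +: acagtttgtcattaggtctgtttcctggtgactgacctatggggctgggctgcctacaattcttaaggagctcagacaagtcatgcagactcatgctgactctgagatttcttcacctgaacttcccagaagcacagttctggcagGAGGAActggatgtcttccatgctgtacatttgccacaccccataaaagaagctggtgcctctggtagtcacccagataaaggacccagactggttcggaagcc
Il1b holds TATAAA 31 to 26 bases before its start and C/EBP letters at 91 to 84 bases. Il1r2 holds C/EBP letters at 10 to 3 bases, Il36g the ETS letters at 104 to 99 bases, and Il1rn none of the motifs. The 250 bases before Il2rg, searched but not shown, also held none. These start sites are those of the canonical transcripts, and the annotated genes Il1r2 and Il36g begin further upstream, at positions 40113239 and 24072000. Among all 21770 promoters of this length, TATAAA was present in 11.9%, GGNNTTTCC in 4.86%, TTNCNNAA in 36.9% and GAGGAA in 22.9%. Among those of the 84 members the shares were 15.5%, 11.9%, 53.6% and 28.6%. A match describes the letters and is not a binding site.

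Il1b, the main secreted IL-1 of myeloid cells (chromosome 2, 129206490 to 129213059), had 93.7 CPM in maternal uninjected, 122 in maternal mIUT, 1149 in maternal pIUT and 5.18 with DC depletion. The recipient levels of Il1b were 39.3 CPM (uninjected), 59.9 (mIUT), 64.6 (pIUT) and 8.99 (DC-depleted pIUT). Maternal pIUT was thus the single high library, and the DC-depleted libraries were the lowest of each origin. Maternal pIUT was 12.3-fold above uninjected (95% interval of 11.9 to 12.7, counting error only), and maternal DC-depleted pIUT was 222-fold below pIUT (191 to 259). In recipient cells DC-depleted pIUT was 7.18-fold below pIUT (6.53 to 7.92).

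Il1a, the cell-associated IL-1 encoded beside Il1b (chromosome 2, 129140291 to 129152098), had 0 counts in both uninjected libraries. It reached 14.3 CPM in maternal mIUT, 107 in maternal pIUT and 0.757 in maternal DC-depleted pIUT, while in recipient cells it had 2 counts in mIUT, 4.72 CPM in pIUT and 6.42 CPM in DC-depleted pIUT. Maternal pIUT was at least 1392-fold higher than uninjected and 141-fold higher than DC-depleted pIUT. Il1a and Il1b parted in recipient cells, where Il1b was 7.18-fold lower with DC depletion and Il1a was 1.36-fold higher. Per kb, Il1b exceeded Il1a 18.4-fold (15.97 to 21.2) in recipient pIUT and 1.88-fold (1.63 to 2.16) in recipient DC-depleted pIUT.

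Il36g, an IL-36 ligand known from epithelia and myeloid cells (chromosome 2, 24072000 to 24083585), had 29.5 CPM in maternal uninjected, 160 in mIUT, 140 in pIUT and 0.939 with DC depletion. The recipient values were 8.58, 316, 37.9 and 3.52 CPM in the same order. Both origins were high in mIUT and lowest in DC-depleted pIUT, which lay 148-fold below pIUT in maternal cells (105 to 219) and 10.8-fold below it in recipient cells (9.28 to 12.6). Il18, an IL-1 family ligand stored in macrophages and epithelium, went the other way. It was at 0 counts in maternal pIUT and 11.3 CPM in maternal DC-depleted pIUT, at least 190.5-fold higher, and at 3.48 CPM in recipient pIUT against 23.5 CPM with DC depletion, 6.74-fold higher (5.71 to 8.02). Il33, the alarmin bound by Il1rl1, was detected only in maternal pIUT (358 counts) and recipient DC-depleted pIUT (62 counts). The 6 mesenchymal genes examined summed to 95.1 CPM in the former, with 5 detected and Pdgfrb at 0, and to 51.6 CPM in the latter with 6 detected, against 0 to 20.7 CPM in the other 6 libraries, and their part in the Il33 values was not tested.

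**Figure D2:**
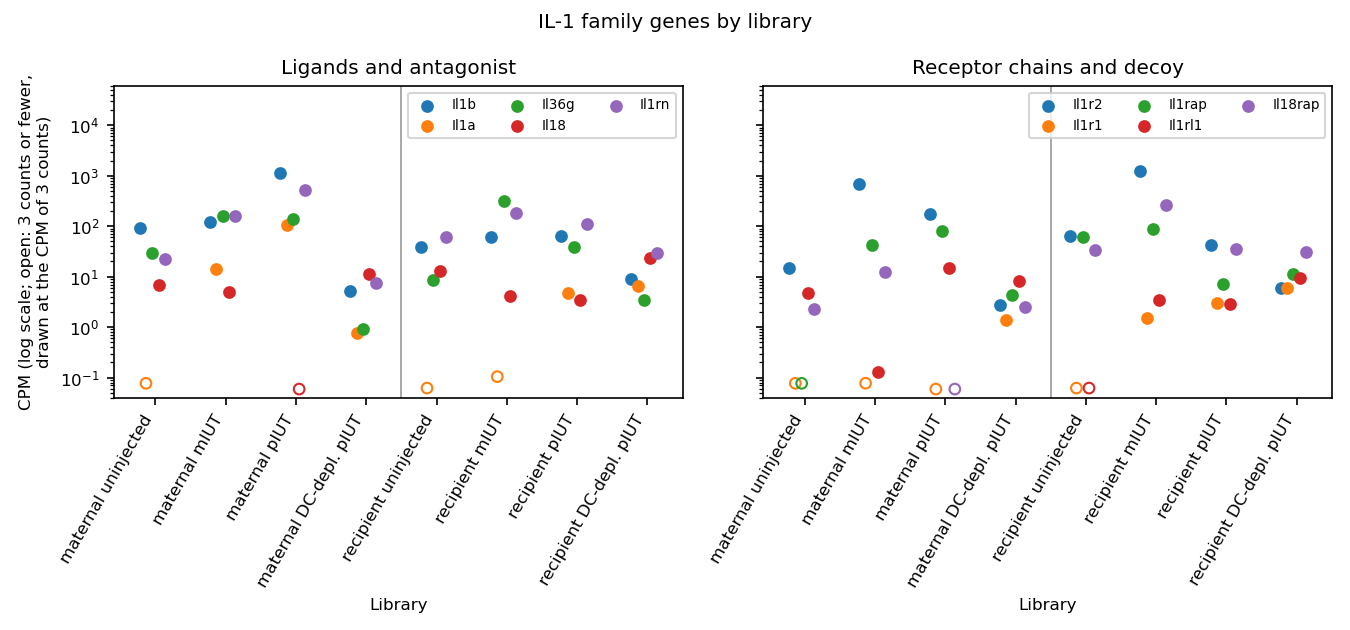
CPM on a log scale of IL-1 family ligands and the antagonist Il1rn (left) and of receptor chains and the decoy Il1r2 (right), 1 point per gene and library, with open points for 3 counts or fewer drawn at the CPM of 3 counts. Il1b peaks in maternal pIUT (1149 CPM), Il1r2 peaks in the mIUT libraries (682 and 1224 CPM), and both are under 10 CPM in the DC-depleted pIUT libraries.

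The inhibitors of IL-1 did not follow a single pattern. Il1rn, the secreted receptor antagonist (chromosome 2, 24226865 to 24241506), had 22.2, 163, 513 and 7.42 CPM in maternal uninjected, mIUT, pIUT and DC-depleted pIUT, and 60.3, 179, 109 and 29.7 CPM in the recipient libraries. It followed Il1b in maternal pIUT (23.1-fold above uninjected, 21.6 to 24.8) but was also 7.34-fold above uninjected in maternal mIUT, where Il1b was 1.30-fold above. Per kb, Il1rn was 0.111 of Il1b in maternal uninjected, 0.625 in mIUT, 0.21 in pIUT and 0.673 after DC depletion. In recipient cells the ratio was 0.720, 1.41, 0.793 and 1.55, above 1 only in mIUT and DC-depleted pIUT.

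Il1r2, the decoy that binds IL-1 without signalling (chromosome 1, 40113239 to 40164391), had 14.8, 682, 176 and 2.70 CPM in the maternal libraries and 63.2, 1224, 42.1 and 5.89 CPM in the recipient libraries, in the same order. The mIUT library of each origin was the highest, 46.2-fold (42.6 to 50.3) and 19.4-fold (18.7 to 20.1) above uninjected. The summed granulocyte genes were also higher in these mIUT libraries, with 8 of 8 listed genes detected in each, none at 0, and summed levels of 2231 CPM in maternal uninjected, 112620 in maternal mIUT, 13662 in recipient uninjected and 187430 in recipient mIUT. The sums were mostly S100a8, S100a9, Ltf and Camp, and in recipient cells Mpo (4385 against 998 CPM) and Elane (1236 against 270.1 CPM) were higher in uninjected than in mIUT. Their part in the Il1r2 and Il36g values was not tested. In the pIUT libraries the granulocyte sum was 1527 CPM (maternal) and 33163 CPM (recipient), and Il1r2 was higher in the former.

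Il1r1, the signalling receptor for IL-1 (chromosome 1, 40264174 to 40356417), was at 0 counts in maternal uninjected, mIUT and pIUT and in recipient uninjected cells. It had 45 counts in maternal DC-depleted pIUT and 43, 137 and 322 counts in recipient mIUT, pIUT and DC-depleted pIUT. Its partner Il1rap had 0 counts in maternal uninjected cells and 41.8, 79.5 and 4.30 CPM after mIUT, pIUT and DC-depleted pIUT, at least 1031-fold higher in pIUT than in uninjected pups. Recipient Il1rap was at 60.5, 87.1, 7.11 and 11.4 CPM. The maternal pIUT library, which held the most Il1b and Il1a, therefore had Il1rap and the decoy but no detectable Il1r1. Per kb, the decoy exceeded Il1r1 at least 8017-fold there, 2207-fold (1638 to 3050) in recipient mIUT, 37.5-fold in recipient pIUT and 2.71-fold (2.32 to 3.17) in recipient DC-depleted pIUT.

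The other receptors of this family were unevenly spread. Il18rap, the accessory chain for IL-18 (chromosome 1, 40554522 to 40590865), had 2.29, 12.4, 0 and 2.54 CPM in maternal cells and 33.0, 268, 35.8 and 31.5 CPM in recipient cells. The binding chain Il18r1 had 14.005, 0.155, 5.26 and 0 CPM in maternal cells and 0, 8.72, 3.39 and 3.05 CPM in recipient cells. The chains were thus found together in 5 libraries, and Il18r1 was missing from recipient uninjected cells, which held 1597 counts of Il18rap. Il18bp, the soluble inhibitor of IL-18, was at 2.16, 0, 4.15 and 3.54 CPM in maternal and at 21.3, 64.3, 24.8 and 23.2 CPM in recipient libraries, but it overlaps Numa1 on the other strand, and the strand setting of the counting is not given in the sources used here. Il1rl1, the receptor for IL-33, had 4.83, 0.129, 15.2 and 8.33 CPM in maternal and 0, 3.49, 2.86 and 9.29 CPM in recipient cells. Il1rl2, the receptor for IL-36, was found in maternal pIUT (6.01 CPM) and in recipient mIUT, pIUT and DC-depleted pIUT (0.942, 2.92 and 7.13 CPM).

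Of the common gamma chain family, Il2rg, Il2rb, Il7r, Il9r, Il15ra and Il21r were each highest in the uninjected library among maternal cells, whereas Il2ra and Il13ra1 were highest in mIUT. Il2rg (X chromosome, 100307984 to 100311861) had 887, 17.6, 28.9 and 10.02 CPM in maternal uninjected, mIUT, pIUT and DC-depleted pIUT, so that it was 50.3-fold (46.6 to 54.3), 30.7-fold (29.1 to 32.3) and 88.5-fold (79.4 to 98.9) lower after each treatment. In recipient cells Il2rg had 305, 50.6, 290 and 175 CPM. There it was 6.04-fold (5.72 to 6.38) lower in mIUT, within 1.05-fold in pIUT and 1.75-fold lower in DC-depleted pIUT.

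Il2rb, the signalling chain shared by IL-2 and IL-15 (chromosome 15, 78363456 to 78395566), had 155, 35.7, 10.4 and 1.18 CPM in maternal cells and 0, 10.1, 76.8 and 97.5 CPM in recipient cells. The uninjected library was thus the highest in maternal cells and the lowest in recipient cells, and DC-depleted pIUT the reverse. Il2ra, the chain that gives high affinity for IL-2 and marks activated and regulatory T cells (chromosome 2, 11647618 to 11698004), had 5.65, 15.6, 0 and 0.242 CPM in maternal cells and 0.269, 1.5, 71.8 and 49.4 CPM in recipient cells. In recipient cells it was 264.5-fold (156 to 502) higher in pIUT and 182-fold (107 to 346) higher in DC-depleted pIUT than in uninjected pups, and the pIUT libraries differed by 1.45-fold (1.38 to 1.53). Il7r, needed by lymphocyte progenitors and resting T cells (chromosome 15, 9505874 to 9530262), had 64.3, 0.181, 0 and 0 CPM in maternal cells and 0.145, 2.37, 8.92 and 7.68 CPM in recipient cells, the former at least 1085-fold lower in pIUT than in uninjected pups.

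Il15ra, which presents IL-15 to neighbouring cells, had 13.95, 0.207, 0 and 7.60 CPM in maternal and 0.228, 18.3, 4.14 and 7.08 CPM in recipient cells. Il21r had 57.7, 20.7, 2.51 and 2.09 CPM in maternal and 0, 10.3, 26.7 and 15.2 CPM in recipient cells, and Il9r was highest in maternal uninjected cells at 22.4 CPM. Il4ra, used by IL-4 and IL-13, was present in every library, at 133, 34.1, 122 and 3.88 CPM in maternal and 107, 140, 56.4 and 40.1 CPM in recipient cells. Il13ra1, its partner in the second form of that receptor, had 54.8, 144, 89.6 and 12.7 CPM in maternal cells. Among the 12 members of this family tested in maternal pIUT against uninjected cells, 7 were lower by at least 4-fold and 1 was higher, the decoy Il13ra2, where 23.7% of all genes tested were lower and 24.2% higher.

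The summed T-cell, B-cell and NK-cell genes were each highest in the uninjected library among maternal cells and varied without a single pattern in recipient cells. The 8 T-cell genes (Cd3d, Cd3e, Cd3g, Cd4, Cd8a, Cd5, Cd28 and Lck) summed to 1789, 440, 107 and 381 CPM in the maternal libraries, with 8, 6, 5 and 7 detected and Cd4 at 0 in both pIUT libraries, and to 486, 636, 3471 and 853 CPM in the recipient libraries with 8 of 8 detected in each. The higher sum in recipient mIUT than in uninjected cells was Cd3d alone (399 against 35.5 CPM), the other 7 genes being lower. The 8 B-cell genes summed to 7284, 327, 49.7 and 32.5 CPM in maternal cells, with Pax5 at 0 in all but the uninjected library, and to 1327, 72.5, 221 and 274 CPM in recipient cells. The 6 NK-cell genes summed to 519, 105, 26.6 and 1.12 CPM in maternal cells, with Ncr1 at 0 in all but the uninjected library, and to 18.8, 4.71, 116 and 145 CPM in recipient cells. The 6 early B-cell genes found in the table summed to 103, 143, 39.6 and 22.1 CPM in maternal cells, highest in mIUT, where Igll1 was at 64.0 CPM against 0 in uninjected cells, and to 0.331, 31.7, 181 and 85.9 CPM in recipient cells. The part of these lists in the receptor values was not tested.

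**Figure D3:**
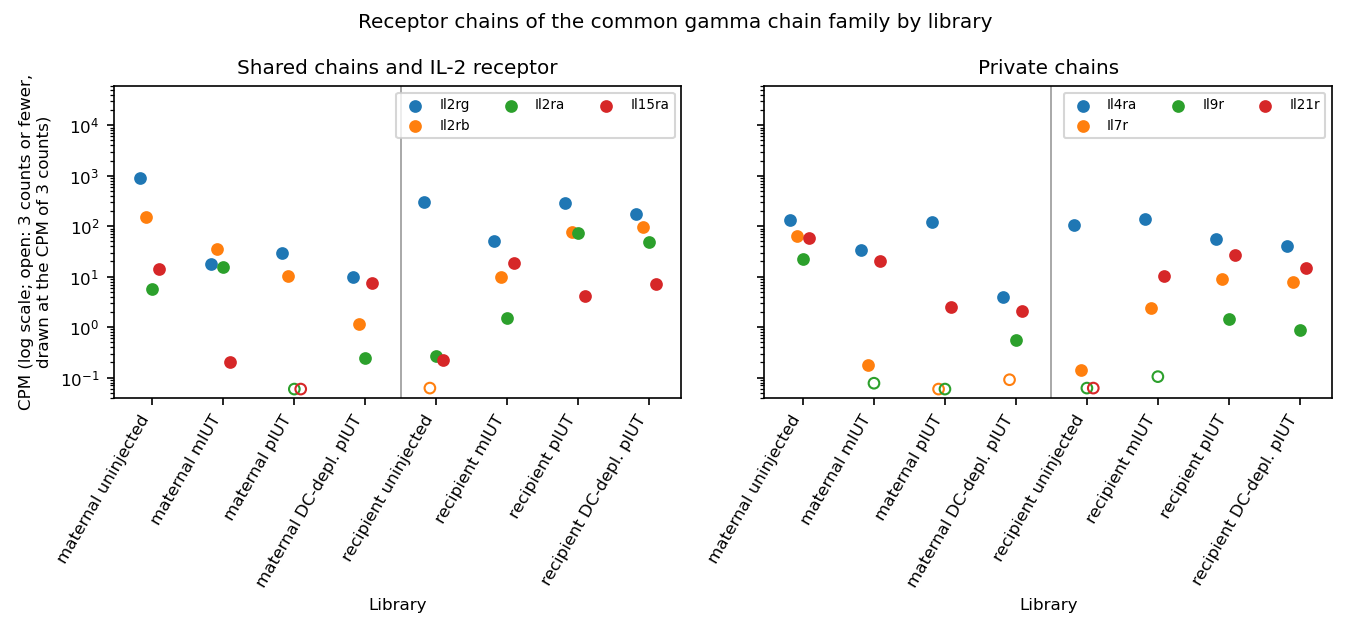
CPM on a log scale of receptor chains of the common gamma chain family, 1 point per gene and library, with open points for 3 counts or fewer drawn at the CPM of 3 counts. Il2rg spans 887 to 10.02 CPM in maternal cells and 305 to 50.6 CPM in recipient cells, and Il2ra and Il2rb lie high in the recipient pIUT libraries.

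The ligands of the common gamma chain family were scarce everywhere. Il15 had 4.91, 0.465, 2.39 and 0.485 CPM in maternal and 0, 9.76, 5.51 and 3.32 CPM in recipient cells, and Il4 lay between 0 and 4.37 CPM over all 8 libraries. Il2 had 7 and 8 counts in recipient pIUT and DC-depleted pIUT and at most 1 count elsewhere, Il21 had 8 counts and Il7 had 4 counts in recipient pIUT and none elsewhere. At these counts Il2, Il7 and Il21 were barely above the detection limit.

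The chains Il3ra and Il5ra, which bind IL-3 and IL-5 and signal with the common beta chain Csf2rb, were highest in maternal uninjected cells at 11.4 and 24.5 CPM and not detected in maternal mIUT or pIUT or in recipient uninjected cells. In maternal DC-depleted pIUT they were at 1.45 and 0.878 CPM, while Csf2rb was 23 counts there against 2896 in pIUT. Recipient Il3ra was 4.25, 4.76 and 7.19 CPM after mIUT, pIUT and DC-depleted pIUT. The 6 mast cell and basophil genes, cells that carry the IL-3 receptor, summed to 149 CPM in maternal uninjected cells, 0.0258 in maternal mIUT, 0 in maternal pIUT, 11.3 in maternal DC-depleted pIUT, and to 0.269, 63.4, 349 and 803 CPM in the recipient libraries. Their part in the Il3ra values was not tested.

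Of the IL-6 group, the ligand Il6 (chromosome 5, 30218112 to 30224979), an inducer of the acute phase, was found in 3 libraries, with 59 counts in maternal uninjected, 580 in recipient pIUT and 255 in recipient DC-depleted pIUT. Its binding chain Il6ra was present in all 8, at 25.9, 64.8, 11.4 and 0.333 CPM in maternal and 22.3, 83.4, 10.4 and 10.1 CPM in recipient cells. Il6st, the signalling chain gp130, had 4.75, 0, 11.0 and 0 CPM in maternal and 74.4, 2.34, 5.42 and 9.80 CPM in recipient cells. Recipient uninjected cells were thus high in Il6st, 31.8-fold (25.0 to 41.2) above mIUT, 13.7-fold above pIUT and 7.59-fold above DC-depleted pIUT, and it was the only library in which Il6st exceeded Il6ra per kb (a ratio of Il6ra to Il6st of 0.525). That library also held 10171 CPM of the 6 hepatocyte genes summed, with Apoa2 at 0, against 5.05 to 622 CPM in the other recipient libraries, and 2478 CPM of the 6 epithelial genes against 4.08 to 30.0 CPM, and their part was not tested. The former sum was nearly all Afp (9054 CPM) and Apoa1 (1039 CPM), while Alb, Serpina1a and Apoa2 were lower than in recipient DC-depleted pIUT, and the latter was nearly all Krt8 and Krt18 (1136 and 1262 CPM), with Krt5 and Krt14 at 0. Il11ra1 had 0.642, 19.1, 26.6 and 11.5 CPM in maternal cells and 0.455, 7.18, 9.50 and 28.0 CPM in recipient cells, but it overlaps Dctn3 and Galt and has near-identical copies, so its counts are uncertain.

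Ligands of the IL-12 and IL-17 groups, which shape type 1 and type 17 responses, were unevenly spread. Il12a, the private subunit of IL-12, had 0.591 and 2.45 CPM in maternal uninjected and mIUT, 1.33, 1.77 and 3.68 CPM in recipient mIUT, pIUT and DC-depleted pIUT, and 0 counts in the other 3 libraries. Il23a, the private subunit of IL-23 (chromosome 10, 128132008 to 128134621), had 1717 counts (33.9 CPM) in maternal pIUT, 51 in recipient pIUT, 3 in recipient mIUT and 0 elsewhere. It was at least 440.3-fold higher in maternal pIUT than in uninjected cells and at least 374-fold higher than in DC-depleted pIUT, although Il12b, the subunit with which it forms IL-23, was not detected in maternal pIUT. Il12b had 84 counts in maternal uninjected and 21 in recipient DC-depleted pIUT, libraries in which Il23a was at 0. Il10, which restrains such responses, had 120 counts in maternal uninjected, 7 in recipient mIUT and 48 in recipient pIUT and was at 0 in the other 5.

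Il17a and Il17f, neighbouring genes of type 17 lymphocytes (chromosome 1, 20801129 to 20804720 and 20847368 to 20860841), were detected mainly in recipient cells. Il17a had 28 counts in maternal DC-depleted pIUT, 190 in recipient pIUT, 277 in recipient DC-depleted pIUT and 0 elsewhere. Il17f had 18, 22, 229 and 513 counts in maternal DC-depleted pIUT and recipient mIUT, pIUT and DC-depleted pIUT, and 0 elsewhere. Per kb, Il17f was 0.662 of Il17a in recipient pIUT (0.544 to 0.807) and 1.02 of it in recipient DC-depleted pIUT (0.877 to 1.18). Il22, made by the same cells, had 52 and 106 counts in recipient pIUT and DC-depleted pIUT and 0 elsewhere, and its soluble inhibitor Il22ra2 had 28 and 72 counts in the same libraries only. The receptor Il23r was found in recipient DC-depleted pIUT alone, at 91 counts.

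Of the receptor chains of these groups, Il12rb1 and Il12rb2 were highest in the recipient pIUT libraries, while the others differed. Il12rb1, shared by IL-12 and IL-23, had 88 counts in maternal pIUT and 18, 1034 and 497 counts in recipient mIUT, pIUT and DC-depleted pIUT. Il12rb2 had 252 counts in maternal uninjected cells and 12, 401 and 649 counts in those recipient libraries, although it overlaps Serbp1 on the other strand. Il27ra, which binds IL-27, had 80.8, 0, 3.46 and 1.61 CPM in maternal and 88.6, 0.523, 35.9 and 28.4 CPM in recipient cells, lowest in mIUT in both origins, at least 1043-fold and 168-fold (103 to 303) below uninjected. Il17ra, the chain common to the IL-17 receptors (chromosome 6, 120440104 to 120464520), was present throughout at 145, 151, 95.8 and 23.6 CPM in maternal and 122, 747, 189 and 107 CPM in recipient cells. Its partner for IL-17A and IL-17F, Il17rc, was detected only in maternal uninjected (208 counts) and recipient DC-depleted pIUT (74 counts).

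In the IL-10 family, the receptor chain Il10ra had 74.3, 2.38, 0.0988 and 0.121 CPM in maternal and 131, 27.8, 27.4 and 23.2 CPM in recipient cells. It was lower after every treatment in both origins, 31.2-fold, 731-fold and 596-fold in maternal and 4.72-fold, 4.78-fold and 5.66-fold in recipient cells. The maternal pIUT and DC-depleted pIUT folds rest on only 5 and 4 counts of Il10ra. Its partner Il10rb, shared with the receptors for IL-22 and the lambda interferons, had 97.7, 185, 104 and 25.2 CPM in maternal and 83.1, 171, 30.3 and 38.9 CPM in recipient cells. Il16, a chemoattractant for CD4+ cells (chromosome 7, 83292016 to 83395370), was the remaining abundant ligand, at 224, 321, 25.1 and 7.72 CPM in maternal and 86.0, 587, 149.7 and 105 CPM in recipient cells, and both mIUT libraries were the highest of their origin. However, Il16 overlaps Stard5 on the other strand.

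With all chains of a receptor required at over 3 counts, 16, 10, 9 and 12 of 26 receptors were complete in maternal uninjected, mIUT, pIUT and DC-depleted pIUT, and 7, 19, 20 and 22 in the recipient libraries, whose order is that of all genes detected. Those for IL-10 and both forms of the IL-4 receptor were complete in all 8, the former with only 5 and 4 counts of Il10ra in maternal pIUT and DC-depleted pIUT, and those for IL-22, IL-31 and the IL-20 group in none. The IL-1 receptor (Il1r1 with Il1rap) was complete in 4 libraries, maternal DC-depleted pIUT and the 3 recipient libraries after IUT. The trimeric IL-2 receptor was complete in 6 and lacked Il2ra in maternal pIUT and Il2rb in recipient uninjected cells. The IL-23 receptor was complete in recipient DC-depleted pIUT alone, and that for IL-17A and IL-17F in this library and in maternal uninjected cells.

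The next comparisons count members past 4-fold, among those with at least 10 counts in either library, and set each count beside the share of all genes past 4-fold in that direction. The counts that require at least 10 counts in both libraries come without a number tested or a share of all genes. They are therefore not to be read against the shares printed here. In maternal mIUT against uninjected cells, 10 of 42 members tested were higher and 22 lower, while 17.9% of all genes tested were higher and 36.4% lower. Of the 42 members, 18 had 3 counts or fewer in a library, and with at least 10 counts required in both libraries 6 were higher and 4 lower. The 3 members furthest up were Il1rap, Il17rb and Il1a (at least 542-fold, 217-fold and 186-fold) and the 3 furthest down were Il27ra, Il7r and Il5ra. Of these, Il17rb overlaps Actr8 and Chdh on the other strand. In maternal pIUT against uninjected cells 15 of 48 were higher and 22 lower, against 24.2% and 23.7% of all genes, or 5 higher and 5 lower with at least 10 counts in both libraries. Il1a, Il1rap and Il23a were furthest up, and Il7r, Il10ra and Il5ra furthest down. Of the 15 higher members, 9 were of the IL-1 family (14 tested).

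In maternal DC-depleted pIUT against uninjected cells, 8 of 45 members were higher and 29 lower (64.4%), against 23.5% and 26.1% of all genes, or 1 higher and 16 lower with at least 10 counts in both libraries. The lower members included 19 of 28 receptor chains tested, with Il7r, Il10ra and Il4i1 (which overlaps Nup62) furthest down, and the median log2 fold change was -4.06 over the members and -0.02 over all genes tested. Il1rap, Il11ra1 and Il1r1 were furthest up. Against DC control pIUT, 11 of 42 members were higher in maternal DC-depleted pIUT and 23 lower, against 24.9% and 28.2% of all genes, and 10 of 15 IL-1 family members tested were among the lower. With at least 10 counts in both libraries 0 were higher and 13 lower, with no share of all genes at that filter. Il23a, Il1b and Il36g were furthest down, and Il18, Il15ra and Il18rap were furthest up, each a bound from 0 counts in pIUT. The 8 monocyte and macrophage genes summed to 1238 CPM in maternal pIUT, where Ccr2 and Vsig4 were at 0, and 103 CPM in maternal DC-depleted pIUT with 8 of 8 detected, and their part in the lower Il1b was not tested. The difference lay in Cd14 (1012 against 5.24 CPM) and Cd68 (171 against 14.1 CPM), while Csf1r (19.3 and 19.9 CPM) and Adgre1 (22.0 and 17.1 CPM) were close and C1qa was higher with DC depletion (7.37 and 35.6 CPM). The 7 conventional DC genes summed to 34.6 CPM in maternal pIUT, with Flt3, Clec9a, Cd209a and Batf3 at 0, and to 79.3 CPM in maternal DC-depleted pIUT, with Clec9a and Cd209a at 0. Zbtb46 alone made up 21.0 and 76.5 CPM of these sums, whereas Itgax had 611 counts against 1 and Xcr1 had 1.48 against 0.242 CPM.

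In recipient cells, mIUT against uninjected had 28 of 42 members higher and 5 lower, against 45.0% and 17.6% of all genes, and Il21r, Il2rb and Il15 were furthest up (each at 0 counts in uninjected cells). In pIUT against uninjected, 31 of 49 were higher and 3 lower, against 45.3% and 13.3% of all genes. Il2rb, Il21r and Il12rb1 were furthest up (at least 1238.5-fold, 430-fold and 369-fold), and Il6st, Il1rap and Il10ra were the 3 lower members. In DC-depleted pIUT against uninjected, 35 of 54 were higher and 5 lower, against 47.1% and 10.9% of all genes, with Il2rb, Il21r and Il12rb2 furthest up and Il1r2, Il6st and Il10ra furthest down. These comparisons share the uninjected library, and between 19 and 31 of the members tested in each had 3 counts or fewer in a library and so gave only a bound. With at least 10 counts in both libraries 8, 4 and 3 members were higher and 5, 3 and 5 lower, in the order given. The shares of all genes above do not apply to these counts.

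Recipient DC-depleted against DC control pIUT was the comparison with the least change. Only 7 of 56 members were higher and 5 lower, against 14.3% and 7.20% of all genes, and 44 lay within 4-fold (1 higher and 3 lower with at least 10 counts in both libraries). The 5 lower members were Il23a, Il10, Il36g, Il1b and Il1r2, and the 7 higher members were Il23r, Il17rc, Il33, Il18, Il12b, Il20rb and Il17d. None of the 11 common gamma chain family members tested passed 4-fold. The 8 granulocyte genes summed to 33163 CPM in pIUT and 18397 CPM with DC depletion, with 8 of 8 detected in each. Ly6g (259 against 8.76 CPM), Ltf (5558 against 484), S100a8 (11358 against 2325), S100a9 (10609 against 2063) and Camp (4771 against 1176) were lower with DC depletion, while Mpo (416 against 10458 CPM) and Elane (77.2 against 1806) were higher. In maternal cells the granulocyte sum was higher with DC depletion, 10318 against 1527 CPM in pIUT (S100a8 4681 against 758 CPM, Camp 2077 against 39.6 CPM), with Csf3r at 0 in the former and Elane at 0 in the latter. Their part in the lower Il1b, Il36g and Il1r2 was not tested.

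**Figure D4:**
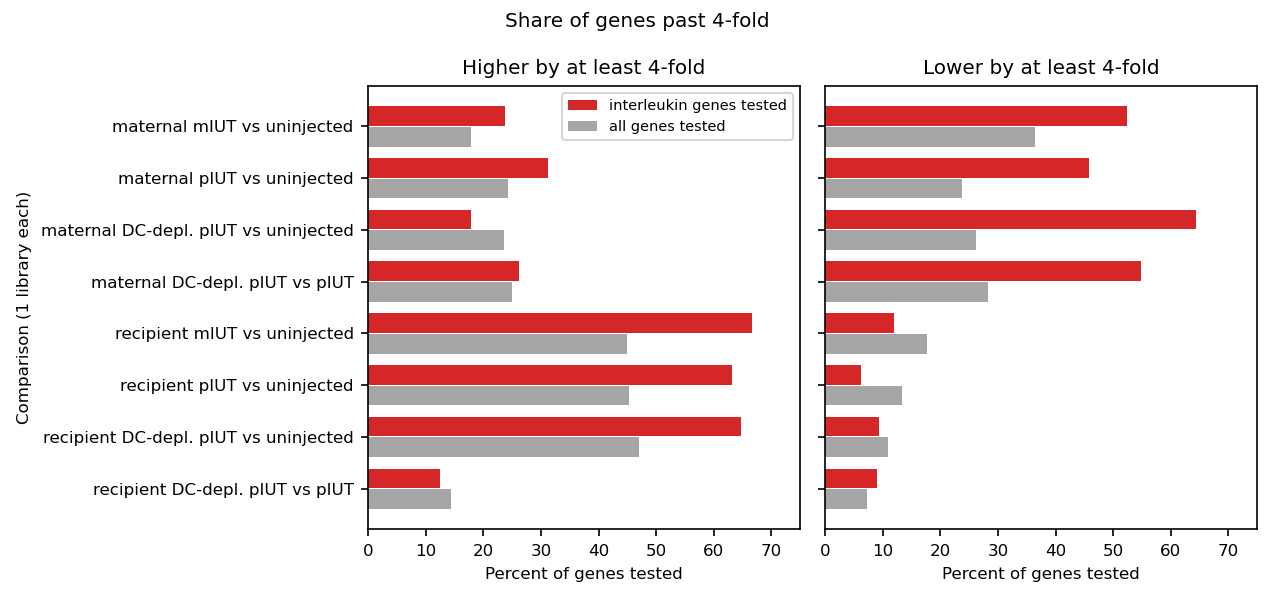
Percent of genes tested that were at least 4-fold higher (left) or lower (right) in each of the 8 comparisons, for interleukin genes (red) and for all genes (grey), from 1 library per group. The widest gap is among lower genes in maternal DC-depleted pIUT against uninjected cells, 64.4% of members against 26.1% of all genes.

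**Figure D5:**
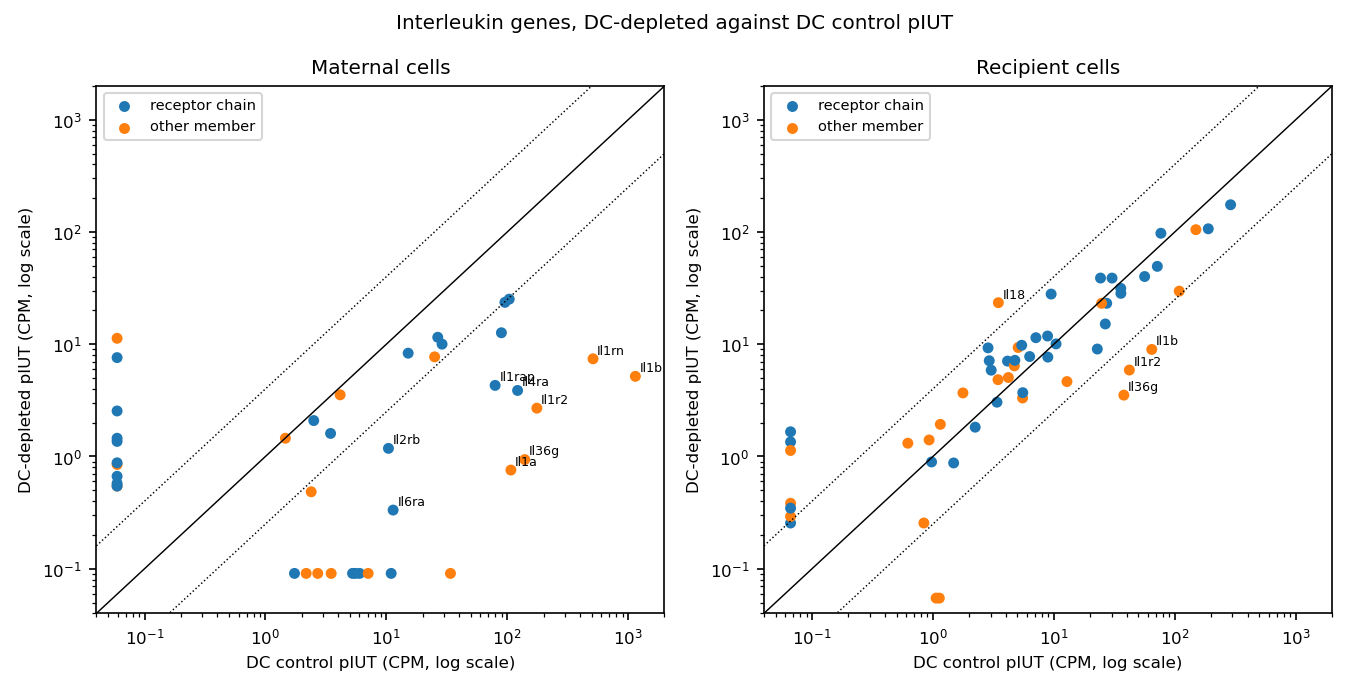
CPM of each tested member in DC control (x axis) and DC-depleted pIUT (y axis), both on log scales, in maternal and recipient cells, with values of 3 counts or fewer drawn at the CPM of 3 counts, the solid line at equality and dotted lines at 4-fold. Maternal Il1b, Il1rn, Il1r2, Il1a and Il36g lie far below the line (65.2-fold to 222-fold), and most recipient points lie between the dotted lines (44 of 56).

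Partners of the interleukin receptors were followed as a list of 47 shared chains, related ligands, kinases, STAT and SOCS proteins and IL-1 signalling genes. Their counts are to be read against the shares of all genes given above for each comparison. In maternal DC-depleted pIUT against uninjected cells 2 of 44 tested were higher and 26 lower by at least 4-fold, and against pIUT 12 of 41 were higher and 19 lower. In maternal mIUT the counts were 3 higher and 15 lower of 42, and in maternal pIUT 5 higher and 16 lower of 42. In recipient cells 19 of 40 were higher with mIUT, 19 of 42 with pIUT and 20 of 44 with DC-depleted pIUT, with 3, 3 and 1 lower. These higher counts were 47.5%, 45.2% and 45.5% of the partners, close to the 45.0%, 45.3% and 47.1% of all genes tested. Against pIUT 2 of 44 were higher and 2 lower in DC-depleted pIUT.

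Among these partners, Nfkbiz, an NF-kB cofactor induced by IL-1 and IL-17, had 15.6, 2.43, 180 and 2.15 CPM in maternal and 45.4, 14.1, 220.4 and 13.3 CPM in recipient cells, high in the pIUT library of each origin. Nlrp3, the sensor of the inflammasome that matures IL-1b, had 1.75, 0, 42.9 and 0 CPM in maternal and 0, 12.1, 14.9 and 3.89 CPM in recipient cells. Casp1, the protease of the inflammasome, was at 0 counts in maternal pIUT and between 3.69 and 62.9 CPM in the other 7 libraries, so that its level parted from that of Il1b and Nlrp3. Stat4, which transmits IL-12 signals, had 94.1 CPM in maternal uninjected cells and at most 1 count in the other maternal libraries, and 35.0, 6.45, 16.8 and 26.9 CPM in recipient cells. Jak3, the kinase bound by Il2rg, had 93.0, 40.3, 21.5 and 7.75 CPM in maternal and 64.3, 54.7, 87.8 and 82.0 CPM in recipient cells.

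The genes whose log2(CPM + 0.5) ran most alike to those of the members over the 8 libraries, among 10370 genes with a mean of at least 5 CPM, are given as a description only, since libraries share depth and cell content. They were Hcar2 (r = 0.92), Resf1 and Cd14 (r = 0.90 each) for Il1b, H2-Q6 (r = 0.98), Pde3b and Phf11a (r = 0.97 each) for Il2rg, Cd96 (r = 0.98), Cxcr6 and Klk8 (r = 0.96 each) for Il2rb, and Trgc2, Ece1 (r = 0.91 each) and Ctnnbl1 (r = 0.90) for Il2ra.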

How the data were processed

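RNA of trafficked maternal and recipient cells was sequenced in 8 pooled libraries, 1 per group. The deposited values are raw estimated counts for each gene from the authors' nf-core run of salmon on GRCm39 and GENCODE, although their methods name featureCounts. Counts were rounded to whole numbers. All 8 columns belong to a sample and 0 were left out. The clonotype tables were not used here.

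The members, roles and gene lists were chosen with earlier results of these data known, and ratios, receptors and promoters after values were seen. Of 52784 gene identifiers, 97.99% matched a GENCODE annotation of GRCm39, which gave symbols, positions and exon lengths. CPM is the count scaled by the library total times its TMM factor (edgeR 4.0.16 in R 4.3.3). The log2 fold change is the one edgeR's exact test returns with the dispersion set to 0.4 and the prior count left at its default, without any p-value. A gene at 3 counts or fewer was not detectable, and a fold against it is a bound at 3 counts. Genes with at least 10 counts in either library entered a comparison. Intervals are exact at 95% (Clopper-Pearson for ratios) and cover counting error only, since reads carry no molecular identifiers. Calculations were tested on simulated data. Other tools were Python 3.11.15 with scipy 1.17.1, pandas 2.3.3 and matplotlib 3.10.9.

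Named genes are those highest per kb in each role, the 3 furthest higher and lower in each comparison, all chains of the IL-1, IL-2, IL-3, IL-5, IL-6, IL-7 and IL-15 receptors, and others chosen after their values were seen to complete a family. The alternatives were size factors of DESeq2 1.42.0, library size alone, a prior count of 2, no filter on low counts, at least 10 counts in both libraries, and detection at 10 counts or after thinning to the smallest library.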

Additional observations from a re-analysis of the deposited data

Results flagged for a closer look

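Under the same treatment, 3 members detected in all libraries concerned moved past 4-fold in opposite directions in maternal and recipient cells. With 1 library per group this difference was not tested. The log2 fold change of Il15ra was -6.06 in maternal mIUT against uninjected cells (8 and 543 counts) and 6.31 in recipient mIUT (525 and 11 counts). Il7r had -8.45 in maternal mIUT (7 and 2503 counts) and 4.00 in recipient mIUT (68 and 7 counts). Il2ra had -4.52 in maternal DC-depleted pIUT against uninjected cells (8 and 220 counts) and 7.51 in recipient DC-depleted pIUT (2710 and 13 counts). Each thus rests on a library just above the detection limit of 3 counts, and none of them keeps its maternal value where at least 10 counts are required in both libraries. Counting members at a bound as well, 11 of 36 members tested in both origins were lower in maternal and higher in recipient cells in mIUT, 14 of 41 in pIUT and 16 of 44 with DC depletion, each against uninjected cells. These are 30.6%, 34.1% and 36.4%, against 16.1%, 11.2% and 11.4% of all genes tested in both. All these recipient values rest on the uninjected library that lacked the largest share of widely expressed genes (9.51%).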

How the results depend on the processing

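DESeq2 size factors, library size alone, a prior count of 2 and no filter on low counts left each of the 16 counts of members past 4-fold within 1.5 times its value, and thinning or a limit of 10 counts did the same for the 8 counts of members detected. Requiring at least 10 counts in both libraries, which removes members at a bound, gave fewer members past 4-fold. No share of all genes is given at this filter. The higher and lower counts became 6 and 4 in maternal mIUT, 5 and 5 in maternal pIUT, 1 and 16 in maternal DC-depleted pIUT against uninjected cells and 0 and 13 against pIUT. In recipient cells the higher counts became 8 (mIUT), 4 (pIUT) and 3 (DC-depleted pIUT) against uninjected cells, and DC-depleted against DC control pIUT gave 1 higher and 3 lower. No named log2 fold change reversed. With DESeq2 size factors 2 of 287 crossed 4-fold, recipient Il36g (1.99) and Il18 (-2.06) in pIUT against uninjected cells, and with library size alone 7, among them recipient Il1b in DC-depleted pIUT against uninjected cells (-1.74) and maternal Il2rg in DC-depleted against DC control pIUT (-2.11). Of 240 CPM levels, 76 moved beyond their counting interval with DESeq2 size factors (each library scaled by 0.921 to 1.14) and 143 with library size alone (0.689 to 1.32). The median over genes detected in both maternal pIUT libraries was -0.18, and -0.76 with library size alone. No paired analysis was possible because the groups compared, treatments within an origin, are 1 library each and share fewer than 2 replicate numbers (no fold change was fitted between maternal and recipient cells). For the same reason no library could be left out. A level of 3 counts or fewer sets the limit of detection.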
